A study of Arabidopsis thaliana with 45 samples.

Results

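The WUSCHEL-related homeobox (WOX) genes encode homeodomain transcription factors of plants. The genes WUS (AT2G17950), WOX1 (AT3G18010), WOX2 (AT5G59340), WOX3 (AT2G28610), WOX4 (AT1G46480), WOX5 (AT3G11260), WOX8 (AT5G45980), WOX9 (AT2G33880), WOX11 (AT3G03660) and WOX12 (AT5G17810) of Arabidopsis thaliana were taken as a list of gene identifiers from this family, and not by a threshold on measured values. They are 10 of 32678 genes in the RNA count table and 10 of 27444 nuclear protein-coding genes that were set against histone peaks. The list leaves out 5 other genes of the family (WOX6, WOX7, WOX10, WOX13 and WOX14), which are described at the end. It was chosen with earlier results of these data known.

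Many WOX genes act in a small group of cells. Examples are the organizing centre of the shoot meristem for WUS, the quiescent centre of the root for WOX5 and the cambium of the vasculature for WOX4. Outside their cells many of these genes are kept silent, in part by Polycomb repressive complex 2 (PRC2). This complex adds trimethyl groups to histone H3 at lysine 27 (H3K27me3). FIE is a subunit that PRC2 needs. TOR is a kinase that couples nutrients to growth.

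RNA sequencing and H3K27me3 chromatin immunoprecipitation (ChIP) sequencing each covered the aerial part of 2-week-old plants from solid medium, in 4 genotypes with 3 libraries each. Ctrl is wild-type Col-0. In amiR-fie-es, an artificial microRNA against FIE was induced by oestradiol, 10 mM as the labels write it, from the start of growth. GFP-FIE is the fie mutant complemented with wild-type FIE fused to GFP, and SSTS/AAAA is the fie mutant carrying GFP-FIE altered at phosphorylation sites. H3K27me3 was also profiled in 7-day-old seedlings from liquid medium, with 3 libraries per group. Those groups were Col-0, tor-es (TOR depletion induced by 10 mM oestradiol from day 3), and Col-0 given DMSO, 10 µM AZD8055 or 10 µM Torin2 on day 4 for 3 days, both compounds being TOR inhibitors. Peaks of H3K9me2, a mark of silent repeats, came from seedlings of Col-0 and tor-es. The labels do not say whether wild-type plants received oestradiol, which promoters drive the transgenes, how many transformed lines were used, or whether libraries came from separate plants. The p-values therefore measure only the spread between these libraries.

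RNA libraries held 28866845 to 34543091 counts, and 1 count was worth 0.0269 to 0.0374 CPM (counts scaled to the size of the library). FIE averaged 17.6 ± 1.59 CPM in Ctrl (SD, n = 3), 8.90 ± 0.175 in amiR-fie-es, 25.5 ± 1.92 in GFP-FIE and 11.8 ± 0.370 in SSTS/AAAA. SSTS/AAAA thus held less FIE RNA than GFP-FIE as well as an altered protein, and these cannot be told apart. SSTS/AAAA replicate 1 stood apart, with a chi-square per degree of freedom of 3.20 and 3.34 against the other libraries of its group, where all other pairs of 1 genotype gave 1.46 to 1.85. Summed over their lists, 6 root markers reached at most 0.862 CPM and 4 embryo markers at most 0.663 CPM in any library, while 7 flower organ markers rose from 5.16 to 7.11 CPM in Ctrl to 170 to 174 in amiR-fie-es, and from 4.72 to 7.60 in GFP-FIE to 310 to 314 in SSTS/AAAA. The 3 green-tissue markers summed to 31000 to 31500 CPM in Ctrl, 23400 to 23700 in amiR-fie-es, 32600 to 33000 in GFP-FIE and 22700 to 23600 in SSTS/AAAA. Of these markers, 3 of 3 were called lower in amiR-fie-es than in Ctrl, beside 30.0% of all genes tested. Likewise 3 of 3 were called lower in SSTS/AAAA than in GFP-FIE, beside 32.3%. The part of these markers in the changes of WOX1 and other members was not tested. In these bulk samples, fewer cells of a type and less RNA per cell cannot be told apart.

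In Ctrl shoots, RNA was clearly read from WOX1, WOX2 and WOX4. Per kb of transcript, WOX1 averaged 7.11 ± 0.0937 CPM per kb (SD, n = 3), WOX2 4.51 ± 0.509 and WOX4 1.89 ± 0.318. WOX9 followed at 0.365 ± 0.0509 CPM per kb, and no other member averaged more than 0.163. The order was different in SSTS/AAAA, where WOX9 led at 7.19 ± 0.497 CPM per kb, ahead of WOX2 at 4.74 ± 0.138, WOX4 at 3.26 ± 0.164, WOX1 at 2.28 ± 0.162 and WOX3 at 1.70 ± 0.128.

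WOX1, WOX2, WOX3, WOX4 and WOX9, 5 of the 10 members, passed the filter on low counts and were tested among 20046 genes. WOX3 passed it through SSTS/AAAA, where it is high. Between amiR-fie-es and Ctrl, 1 member was called higher, beside 29.3% of all genes tested, and 2 were called lower, beside 30.0%. Between SSTS/AAAA and GFP-FIE, 4 were called higher, beside 33.3%, and 1 lower, beside 32.3%. SSTS/AAAA against Ctrl gave 3 higher (35.0% of all genes) and 1 lower (34.1%), amiR-fie-es against GFP-FIE 2 higher (27.9%) and 2 lower (28.6%), and SSTS/AAAA against amiR-fie-es 4 higher (30.9%) and 1 lower (25.0%). These comparisons share libraries. With so many genes called, the number of members called says little, and the sizes of the changes are given gene by gene.

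**Figure D1:**
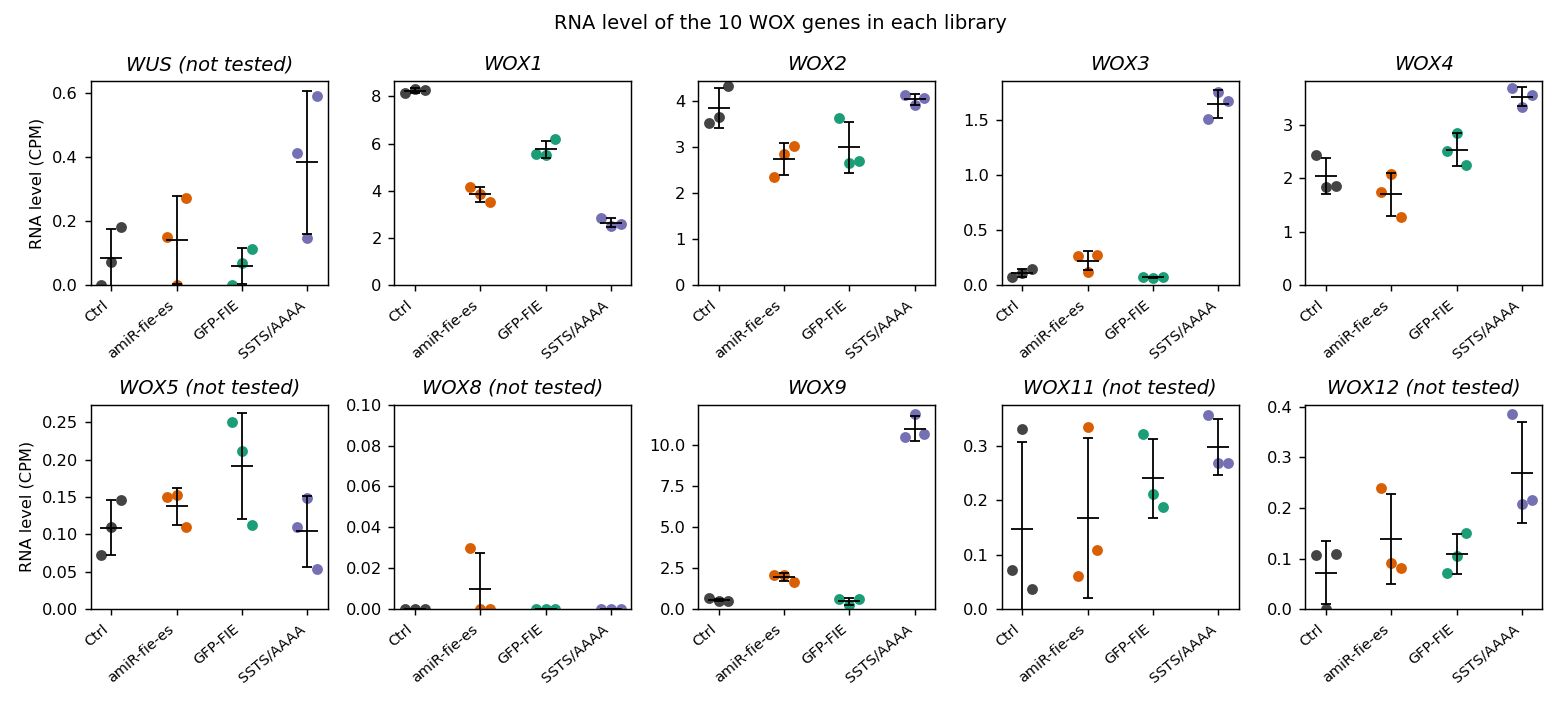
RNA level in CPM (y axis, linear, with its own scale for each gene) of each of the 10 genes in 4 genotypes. Points are libraries, with the mean and SD of 3; WOX3 and WOX9 were highest in the 3 SSTS/AAAA libraries and WOX1 in the 3 Ctrl libraries.

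WOX9, also called STIMPY, promotes growth of the shoot meristem and acts in the early embryo. Ctrl libraries held 18, 14 and 14 counts of WOX9, GFP-FIE libraries 17, 7 and 16, amiR-fie-es libraries 69, 68 and 61, and SSTS/AAAA libraries 380, 398 and 395. Ctrl and GFP-FIE overlapped, amiR-fie-es lay above both, and SSTS/AAAA lay above all the others. WOX9 rose 3.45-fold in amiR-fie-es over Ctrl (log2 1.79 ± 0.22 SE, 3 libraries per genotype, edgeR adjusted p = 3.19e-09). It rose 22.6-fold in SSTS/AAAA over GFP-FIE (log2 4.50 ± 0.17, edgeR adjusted p = 3.12e-26). SSTS/AAAA was also 5.67-fold above amiR-fie-es (edgeR adjusted p = 1.27e-21), so in the order of levels only the lowest neighbours, Ctrl and GFP-FIE, did not differ beyond their spread (log2 -0.21 ± 0.32, edgeR adjusted p = 0.684).

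WUS, which maintains the stem cells of the shoot meristem, did not pass the filter. Its counts were 0, 2 and 5 in Ctrl, 5, 0 and 10 in amiR-fie-es, 0, 2 and 3 in GFP-FIE, and 15, 5 and 22 in SSTS/AAAA. SSTS/AAAA lay above GFP-FIE without overlap but overlapped Ctrl and amiR-fie-es, and amiR-fie-es overlapped Ctrl. The ratio of SSTS/AAAA to GFP-FIE was 6.51, with a 95% interval of 2.58 to 21.1 that covers counting error only, and the exact two-sided permutation p was 0.1, the smallest that 3 against 3 libraries allow. With no filter on low counts WUS was called higher in that comparison (log2 2.62 ± 0.65, edgeR adjusted p = 0.000196). In the same fit SSTS/AAAA was called higher than Ctrl (2.16 ± 0.61, edgeR adjusted p = 0.00111) and amiR-fie-es (1.39 ± 0.51, edgeR adjusted p = 0.0198). The change of SSTS/AAAA from GFP-FIE less that of amiR-fie-es from Ctrl was not called (1.86 ± 1.08, edgeR adjusted p = 0.21). A rise of WUS particular to SSTS/AAAA is thus not shown. The ratio of amiR-fie-es to Ctrl was 1.72, with an interval of 0.661 to 5.0.

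WOX3, also called PRESSED FLOWER, acts at the margins of leaves and floral organs. Its counts were 2, 3 and 4 in Ctrl, 2, 2 and 2 in GFP-FIE, 9, 4 and 10 in amiR-fie-es, and 55, 59 and 62 in SSTS/AAAA. SSTS/AAAA stood clear of the other 3 genotypes. WOX3, which passed the filter only through this genotype, rose there over GFP-FIE by 4.43 ± 0.39 on the log2 scale (edgeR adjusted p = 1.78e-13), from 0.0724 ± 0.00223 to 1.65 ± 0.124 CPM (SD, n = 3). In amiR-fie-es against Ctrl its log2 fold change was 1.01 ± 0.54 (edgeR adjusted p = 0.107), which missed the threshold of 0.05 and passed it without amiR-fie-es replicate 2 (1.29, edgeR adjusted p = 0.0466). The order of the levels was SSTS/AAAA, amiR-fie-es, Ctrl and GFP-FIE, and among the last 3 neighbours did not differ beyond their spread. Against GFP-FIE, amiR-fie-es was called higher (log2 1.58 ± 0.60, edgeR adjusted p = 0.0224), a call lost with DESeq2 (adjusted p = 0.0561) and without amiR-fie-es replicate 1 or 3 or GFP-FIE replicate 1 or 2.

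WOX1 promotes outgrowth of the leaf blade together with WOX3. WOX1 stood at 8.12, 8.32 and 8.29 CPM in Ctrl, 5.56, 5.53 and 6.17 in GFP-FIE, 4.18, 3.85 and 3.53 in amiR-fie-es, and 2.86, 2.50 and 2.59 in SSTS/AAAA. The 4 genotypes did not overlap. WOX1 was 2.14-fold lower in amiR-fie-es than in Ctrl (edgeR adjusted p = 7.30e-13) and 2.17-fold lower in SSTS/AAAA than in GFP-FIE (log2 -1.12 ± 0.11, edgeR adjusted p = 1.05e-11). GFP-FIE itself was lower than Ctrl by a log2 value of -0.52 ± 0.10 (edgeR adjusted p = 3.44e-05), the only call among the 5 tested members between these genotypes, beside 15.3% of all genes called lower and 14.4% called higher. Each neighbour in the order of WOX1 levels differed from the next, since amiR-fie-es against GFP-FIE gave -0.58 ± 0.11 (edgeR adjusted p = 9.81e-06) and SSTS/AAAA against amiR-fie-es -0.54 ± 0.12 (edgeR adjusted p = 0.000147).

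WOX4 keeps the cells of the vascular cambium dividing, downstream of the CLE41 and CLE44 peptides and their receptor PXY. WOX4 stood at 2.44, 1.84 and 1.85 CPM in Ctrl, 1.74, 2.08 and 1.29 in amiR-fie-es, 2.51, 2.86 and 2.25 in GFP-FIE, and 3.68, 3.33 and 3.56 in SSTS/AAAA. SSTS/AAAA lay above all other libraries, amiR-fie-es overlapped Ctrl, and Ctrl overlapped GFP-FIE. WOX4 was higher in SSTS/AAAA than in GFP-FIE by 0.47 ± 0.15 on the log2 scale (edgeR adjusted p = 0.00589), a call lost without GFP-FIE replicate 3 (0.37, edgeR adjusted p = 0.0581). In amiR-fie-es against Ctrl the value was -0.28 ± 0.18 (edgeR adjusted p = 0.186).

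WOX2 and WOX8 pattern the early embryo. WOX2 stood at 3.52, 3.65 and 4.33 CPM in Ctrl, 2.34, 2.84 and 3.01 in amiR-fie-es, 3.62, 2.64 and 2.69 in GFP-FIE, and 4.12, 3.90 and 4.07 in SSTS/AAAA. The amiR-fie-es libraries lay below Ctrl and the SSTS/AAAA libraries above GFP-FIE. WOX2 fell by 0.48 ± 0.14 on the log2 scale in amiR-fie-es (edgeR adjusted p = 0.00280) and rose by 0.43 ± 0.14 in SSTS/AAAA over GFP-FIE (edgeR adjusted p = 0.00531). The rise was lost without GFP-FIE replicate 2 (0.32, edgeR adjusted p = 0.064) or replicate 3 (0.34, edgeR adjusted p = 0.0501), and SSTS/AAAA against Ctrl gave 0.07 ± 0.13 (edgeR adjusted p = 0.625). WOX8 had 1 count in all 12 libraries, in amiR-fie-es replicate 1; the limit that 0 counts allow in Ctrl, 3 counts over the group, is 0.0364 CPM.

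WOX5, WOX11 and WOX12 act in roots, WOX5 in the quiescent centre and the other two in founder cells of adventitious roots. WOX5 had 2 to 7 counts in any library, WOX11 had 1 to 13 and WOX12 had 0 to 14, so none passed the filter. In amiR-fie-es against Ctrl the libraries of all 3 genes overlapped. In SSTS/AAAA against GFP-FIE, WOX12 did not overlap, with 14, 7 and 8 counts against 2, 3 and 4. Its ratio was 2.50, with a counting interval of 1.15 to 6.0 (exact two-sided permutation p = 0.1), and with no filter it was not called (edgeR adjusted p = 0.0838). WOX11 gave a ratio of 1.24 (0.688 to 2.29) and WOX5 one of 0.533 (0.224 to 1.22), both with overlapping libraries.

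Whether the changes differed between the lines low in FIE was tested directly, as the log2 change of SSTS/AAAA from GFP-FIE less that of amiR-fie-es from Ctrl. The difference was 2.71 ± 0.35 for WOX9 (edgeR adjusted p = 1.43e-08) and 3.42 ± 0.84 for WOX3 (edgeR adjusted p = 0.000726). It was 0.92 ± 0.20 for WOX2 (edgeR adjusted p = 0.000132) and 0.75 ± 0.24 for WOX4 (edgeR adjusted p = 0.00787), the latter lost without Ctrl replicate 1 (0.57, edgeR adjusted p = 0.0649). WOX1 gave -0.02 ± 0.15 (edgeR adjusted p = 0.944), a value that does not show its changes to be equal. These 4 calls stand beside 23.5% of all genes tested called in that direction. Of the 4 genes, WOX3 passed the filter on low counts only through SSTS/AAAA, where it is high. The lines differ in transgene, oestradiol and FIE level, which cannot be told apart.

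**Figure D2:**
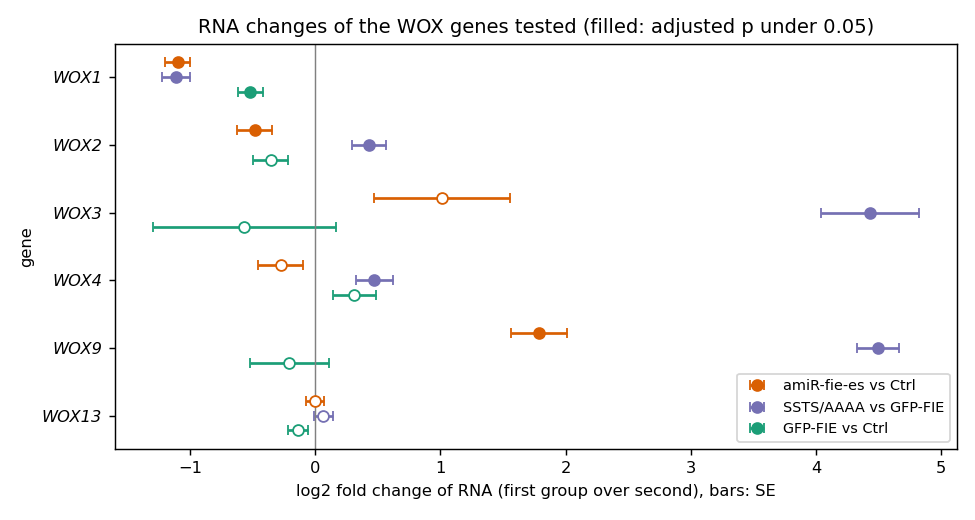
Log2 fold change with its SE (x axis) of WOX1, WOX2, WOX3, WOX4, WOX9 and WOX13 in 3 comparisons, from edgeR with n = 3 libraries per genotype; filled points have an adjusted p under 0.05. WOX3 and WOX9 exceeded 4 in SSTS/AAAA against GFP-FIE, and WOX1 was below 0 in all 3 comparisons.

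Among the other genes of the pathway, listed by role, the CLE peptides and their receptors had 11 of 13 tested. Of these, 3 were called higher and 5 lower in amiR-fie-es against Ctrl, and 5 higher and 4 lower in SSTS/AAAA against GFP-FIE, beside the 29.3%, 30.0%, 33.3% and 32.3% of all genes given above, none with an absolute log2 fold change of 1 or more. Their median log2 fold changes were -0.05 in both, beside medians over all genes of 0.01 and 0.02. CLV3 is the peptide that WUS induces and that represses WUS in return. Summed over the libraries of a genotype, CLV3 had 6 counts in Ctrl, 4 in amiR-fie-es, 2 in GFP-FIE and 1 in SSTS/AAAA. CLE40, another gene of the list, had 2 counts in Ctrl, 19 in amiR-fie-es, 3 in GFP-FIE and 12 in SSTS/AAAA. Its single libraries held 0 to 1 counts in Ctrl and 5 to 8 in amiR-fie-es. Neither CLV3 nor CLE40 passed the filter, so they were not tested. Of the 9 cofactors of WOX proteins (HAM and TOPLESS family), 4 were called higher and 2 lower in amiR-fie-es, and 6 higher and 1 lower in SSTS/AAAA, again all under a log2 of 1, beside the same shares of all genes.

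Of 11 regulators and targets of WOX genes tested, 4 were called higher and 4 lower in amiR-fie-es, beside 29.3% and 30.0% of all genes, and 4 higher and 5 lower in SSTS/AAAA, beside 33.3% and 32.3%. Their median log2 fold changes were -0.01 and 0.02, and the genes named here are those with the largest changes. AG, the floral homeotic gene that shuts off WUS in flowers and is itself one of the flower organ markers, rose from 0.352 to 35.2 CPM in amiR-fie-es (log2 6.63 ± 0.14) and from 0.625 in GFP-FIE to 30.5 in SSTS/AAAA (5.60 ± 0.13). ARR15, a type-A cytokinin response regulator of the group that WUS represses, fell by 1.28 ± 0.11 in amiR-fie-es and by 2.66 ± 0.13 in SSTS/AAAA on the log2 scale. STM, which keeps meristem cells undifferentiated, rose from 4.82 to 16.5 CPM in SSTS/AAAA (log2 1.77 ± 0.08, edgeR adjusted p = 6.15e-23). Of the flower organ markers, 7 of 7 were called higher in both comparisons, as was WOX9, while WOX3 was called only in SSTS/AAAA; their part in the WOX changes was not tested.

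By Pearson correlation of log2 CPM over the 12 RNA libraries, a description in which the points share genotypes, the gene nearest to WOX9 was the beta-amylase gene BAM5 (r = 0.995), which averaged 0.727 CPM in Ctrl and 11.9 in SSTS/AAAA. BGLU40 was nearest to WOX1 (r = 0.992), AT4G10500 to WOX3 (r = 0.990), SRF2 to WOX4 (r = 0.934) and AT1G05270 to WOX2 (r = 0.922).

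H3K27me3 was described by the share of a gene body that lies under peaks called by the authors in each library, and a gene was called marked with at least 200 bp covered. ChIP read depth is unknown, and a covered share depends on how many peaks a library yielded. Peaks spanned 6047 to 6681 kb in Ctrl, 859.0 to 910.7 kb in amiR-fie-es, 5275 to 5674 kb in GFP-FIE and 2406 to 2447 kb in SSTS/AAAA. In Ctrl, 8 of the 10 WOX genes were marked in 3 of 3 libraries, beside 17.9% of all genes. The exceptions were WOX2, with no covered base, and WOX8, covered over 13.7%, 8.1% and 0.0%. The same count was 9 in GFP-FIE (16.0% of all genes), 8 in SSTS/AAAA (8.91%) and 6 in amiR-fie-es (3.50%). In seedlings it was 8 in Col-0 (14.6%), 7 in tor-es (10.9%), 8 under DMSO (26.7%), 9 under AZD8055 (26.2%) and 8 under Torin2 (22.4%). WOX1, WOX3, WOX4, WOX9, WOX12 and WUS were marked in every library of all 9 groups. Of the family genes outside the list, WOX6 and WOX7 were likewise marked in every library, and WOX10, WOX13 and WOX14 had no H3K27me3 peak. No member was marked by H3K9me2 in any of the 6 libraries, beside 0.0802% of all genes in Col-0 and 0.0838% in tor-es.

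**Figure D3:**
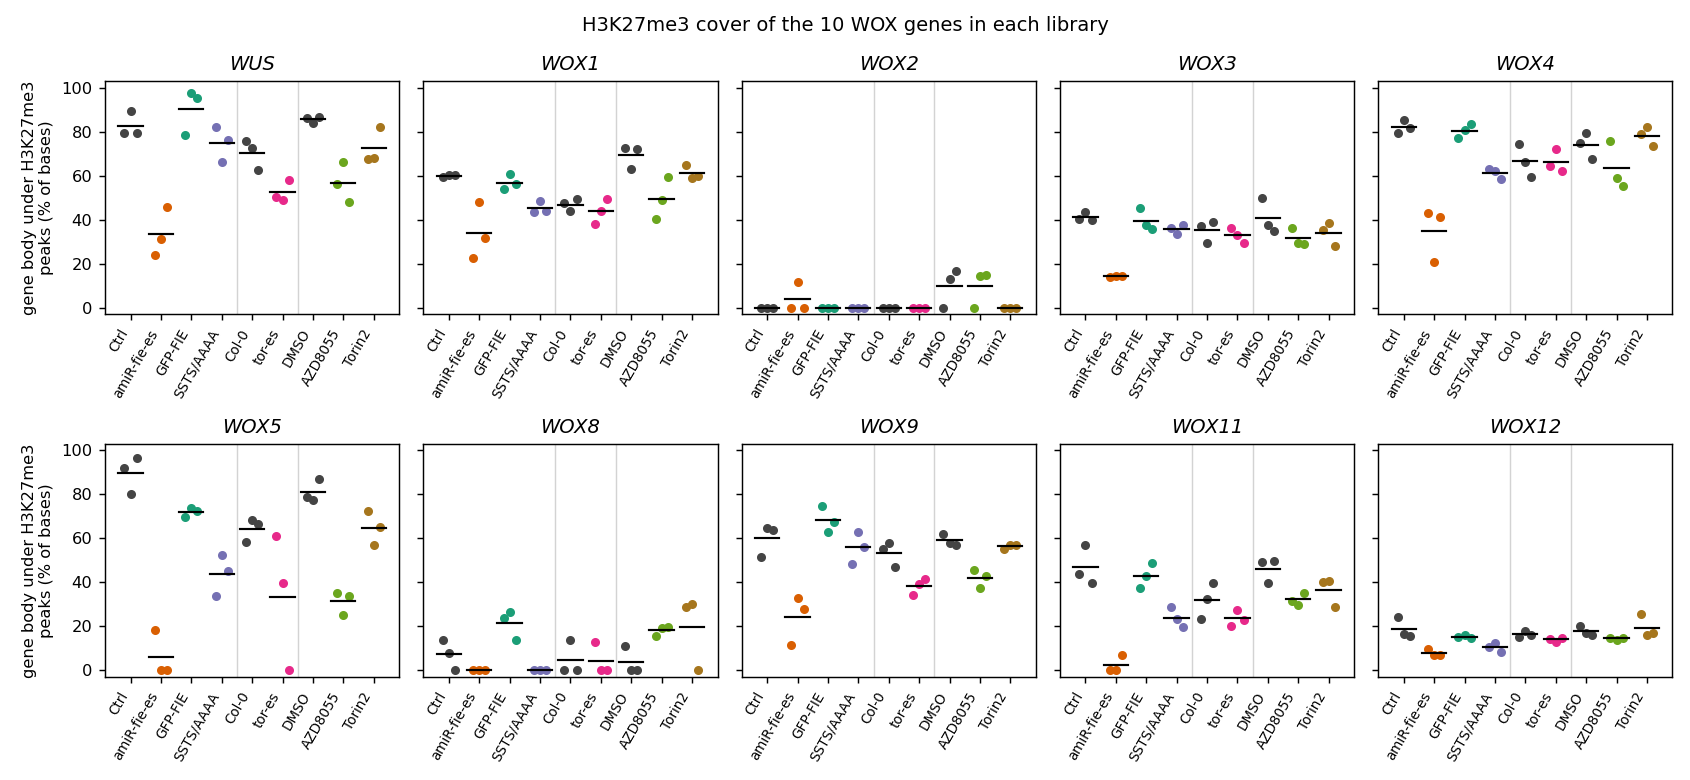
Share of the gene body under H3K27me3 peaks in percent (y axis) for each of the 10 genes in 9 groups. Points are libraries and lines are means of 3; WUS, WOX4 and WOX5 were covered most in Ctrl, and WOX2 had no covered base there.

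In amiR-fie-es, the covered share was lower than in Ctrl without overlap at 8 of the 10 members, a share near the 76.9% of all genes with a covered base. Of the members, 6 of the 8 members marked in Ctrl (WUS, WOX1, WOX3, WOX4, WOX9 and WOX12) stayed marked in 3 of 3 amiR-fie-es libraries, beside 19.3% of all genes marked in Ctrl, and 0 of 8 lost the mark in every library, beside 57.0%. These counts depend on the peak rule: with at least 50% of the gene body required, 0 members were marked in amiR-fie-es and 5 were lost, and with peaks of −log10 q of at least 5, 2 were marked and 3 lost. Shares of all genes under these other rules were not computed, so whether the members stand apart there is not known. The median ratio of amiR-fie-es to Ctrl cover was 0.404 over these 8 members and 0.0 over all 4913 genes marked in Ctrl.

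By the ratio of mean cover in amiR-fie-es to that in Ctrl, WOX5 (0.0676) and WOX11 (0.049) were lowest of the 8 members. WOX5 was covered over 92.2%, 80.3% and 96.5% in Ctrl and over 18.2%, 0.0% and 0.0% in amiR-fie-es, with its Ctrl peak at chr3:3527090-3528350 (TAIR10) in replicate 1. WOX11 was covered over 43.6%, 57.2% and 39.8% in Ctrl and over 0.0%, 0.0% and 6.89% in amiR-fie-es. The RNA libraries of amiR-fie-es and Ctrl overlapped at both genes. WUS was covered over 79.5%, 89.2% and 79.6% in Ctrl and over 24.0%, 31.1% and 45.9% in amiR-fie-es. In replicate 1, Ctrl had 2 peaks over WUS, the longest at chr2:7808863-7809714, and amiR-fie-es had 1, at chr2:7810213-7810678. For each of these genes the exact two-sided permutation p was 0.1, the smallest possible.

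WOX9 and WOX3, the genes with the largest RNA changes, were both covered less in amiR-fie-es than in Ctrl. WOX9 was covered over 51.6%, 64.5% and 64.0% in Ctrl and over 11.4%, 33.1% and 27.7% in amiR-fie-es, against 74.5%, 62.9% and 67.6% in GFP-FIE and 48.5%, 62.8% and 56.3% in SSTS/AAAA. In SSTS/AAAA and GFP-FIE the nearest libraries were 0.1 percentage points apart. The difference from the control was -35.9 percentage points in amiR-fie-es and -12.4 in SSTS/AAAA (-8.8 without SSTS/AAAA replicate 1). Whether these differences differ was not tested, and the lines also differ in the length under all peaks. WOX3 was covered over 40.5%, 43.3% and 39.7% in Ctrl and over 14.0%, 14.6% and 14.2% in amiR-fie-es. In SSTS/AAAA it was covered over 36.0%, 33.6% and 37.6%, which overlapped the 45.4%, 37.5% and 35.6% of GFP-FIE (difference -3.8 points, exact two-sided permutation p = 0.5). With 1 kb added on both sides, an alternative chosen after seeing the data, the difference was -10.4 points (exact two-sided permutation p = 0.1). In replicate 1 the longest WOX3 peak was chr2:12261592-12262731 in GFP-FIE and chr2:12261958-12262582 in SSTS/AAAA.

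**Figure D4:**
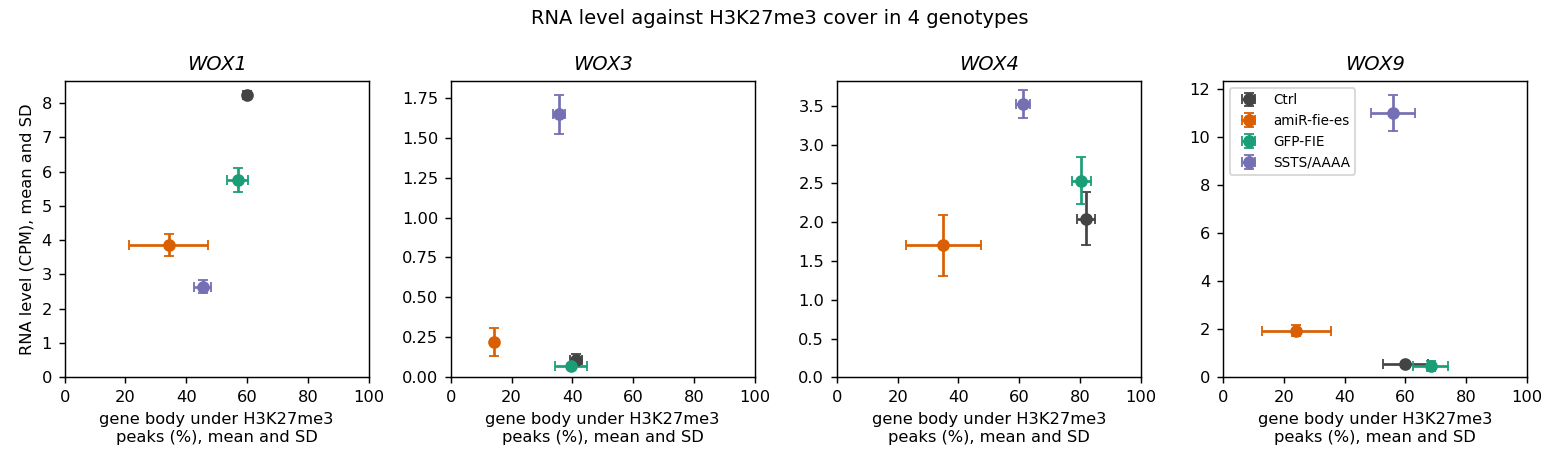
Mean share of the gene body under H3K27me3 peaks in percent (x axis) against mean RNA level in CPM (y axis) for WOX1, WOX3, WOX4 and WOX9 in 4 genotypes, with SD of 3 libraries on each axis. WOX9 was at 55.9% and 11.0 CPM in SSTS/AAAA and at 24.1% and 1.94 CPM in amiR-fie-es.

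In SSTS/AAAA against GFP-FIE, 8 of 9 marked members stayed marked in 3 of 3 libraries, beside 55.4% of all genes marked in GFP-FIE, and 1 was lost, beside 18.1%. The lost gene was WOX8, covered over 23.8%, 26.4% and 13.8% in GFP-FIE and 0.0% in the 3 SSTS/AAAA libraries, with no RNA read in either. This loss was not called with peaks of −log10 q of at least 5 (difference -7.9 points, exact two-sided permutation p = 1.0) or with 1 kb added on both sides of the gene. The share was lower without overlap at 7 of 9 members, beside 59.4%, and overlapped at WUS and WOX3. Members' median ratio was 0.762, and that of all genes marked in GFP-FIE was 0.463. The largest fall among genes that stayed marked was at WOX5, from 72.1% ± 1.97 to 43.8% ± 9.35 (SD, n = 3). WOX1, whose RNA fell, also lost cover, from 56.9% ± 3.48 to 45.4% ± 2.87.

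GFP-FIE against Ctrl, which shares libraries with both comparisons above, showed little change over most members. All 8 members marked in Ctrl stayed marked in 3 of 3 GFP-FIE libraries, beside 86.9% of all genes. WOX5 was lower without overlap, by -17.6 points, beside 14.2% of all genes with a covered base, and WOX8 higher by 14.1 points, beside 2.34%. No member was lost, beside 2.54%.

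**Figure D5:**
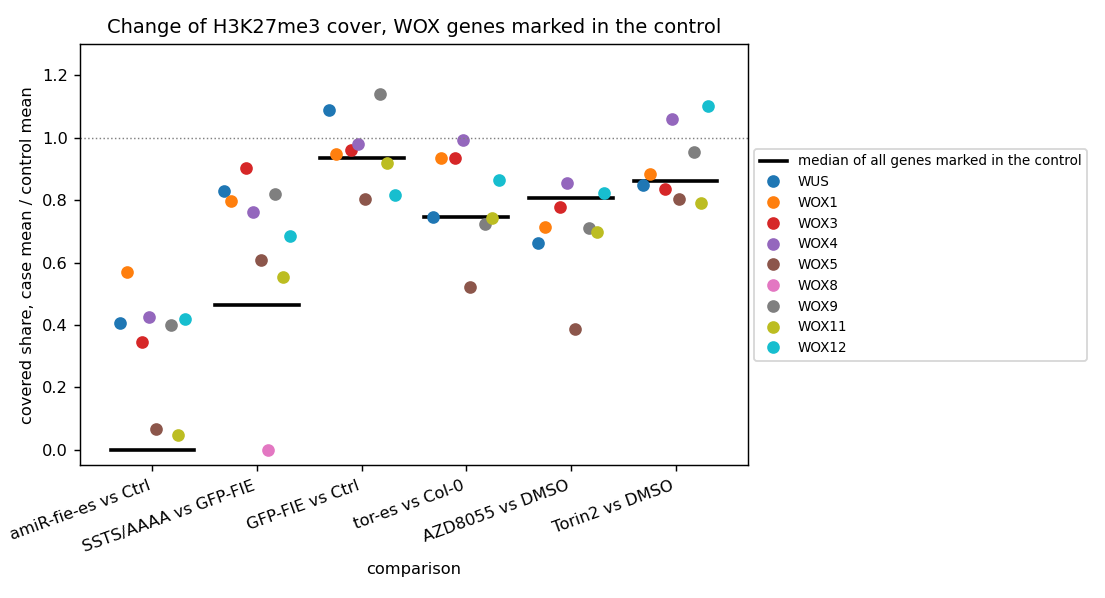
Ratio of mean covered share, case to control (y axis), for each member marked in 3 of 3 control libraries, in 6 comparisons; the black line is the median of all genes marked in the control. In amiR-fie-es against Ctrl the members' median was 0.404 and that of all genes 0.0.

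In tor-es seedlings, WUS, WOX9 and WOX12 were covered less than in Col-0 without overlap, 3 of 9 members beside 26.8% of all genes with a covered base. WUS was covered over 75.6%, 72.7% and 62.6% in Col-0 and over 50.4%, 49.1% and 57.9% in tor-es, a difference of -17.8 points (exact two-sided permutation p = 0.1). WOX9 was covered over 55.0%, 57.7% and 46.8% in Col-0 and over 34.4%, 39.4% and 41.6% in tor-es (-14.7 points, same p). The ratio of tor-es to Col-0 cover was 0.746 at WUS and 0.723 at WOX9. Over all genes marked in Col-0 its median was 0.747, so both falls were near that of marked genes in general. Peaks spanned 4281 to 4514 kb in Col-0 and 2825 to 3186 kb in tor-es. WOX5 varied widely in tor-es, with 60.9%, 39.7% and 0.0% against 58.3%, 68.4% and 66.7%, and the groups overlapped. The mark was kept in 3 of 3 libraries at 7 of 8 members, beside 71.6%, and lost in every library at none, beside 6.97%.

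AZD8055 and Torin2, at the same dose and time, were compared with the same DMSO libraries, so the values are given side by side. WOX5 was covered over 78.6%, 77.3% and 86.8% under DMSO, 35.3%, 25.2% and 33.8% under AZD8055, and 72.4%, 57.0% and 65.3% under Torin2. WUS was covered over 86.3%, 83.8% and 86.6% under DMSO, 56.4%, 66.0% and 48.1% under AZD8055, and 67.4%, 68.2% and 82.2% under Torin2. At both genes AZD8055 libraries were lowest in cover and DMSO libraries highest, with no overlap. Cover does not measure peak strength. By fold enrichment, the top WUS peak exceeded 88.0% to 92.4% of the peaks of its own library under AZD8055 and 77.7% to 86.9% under DMSO. For WOX5 the values were 61.5% to 80.4% and 84.5% to 89.4%. The median peak of a library was 378 to 381 bp long under AZD8055 and 485 to 514 bp under DMSO. Cover was lower than under DMSO without overlap at 6 of 10 members for AZD8055, beside 31.3% of all genes with a covered base, and at 3 of 10 for Torin2 (WUS, WOX5 and WOX9), beside 25.4%. WOX8 was higher under AZD8055, with 15.8%, 19.3% and 19.8% against 10.9%, 0.0% and 0.0%, beside 10.0% of all genes. The mark was kept at 8 of 8 members under either compound, beside 82.6% and 82.1%, and lost at none, beside 4.75% and 3.51%.

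Set directly against each other, Torin2 left more cover than AZD8055 without overlap at 4 of the 10 members, beside 16.2% of all genes, and less at none, beside 17.4%. It kept the mark at 8 of 9 members marked under AZD8055, beside 76.2%, with none lost, beside 8.21%. The difference was 33.5 points at WOX5, with single libraries differing by 21.7 to 47.2 points, and 15.7 at WUS (1.3 to 34.1). It was 14.4 at WOX9 (9.5 to 19.5) and 4.9 at WOX12 (1.0 to 11.6). The exact two-sided permutation p was 0.1 for each of these, the smallest possible, so no adjustment over the 10 genes compared could bring one below 0.05. At WOX1 the difference was 11.7 points (-0.4 to 24.6), at WOX4 14.9 (-1.9 to 26.5), at WOX3 2.4 (-8.3 to 9.5) and at WOX11 4.3 (-6.3 to 10.8). It was 1.4 at WOX8 (-19.8 to 14.6) and -9.8 at WOX2 (-14.9 to 0.0). Libraries overlapped at each of these genes, which does not show that the compounds act alike there. AZD8055 libraries held 13743 to 14638 peaks over 6638 to 7092 kb and Torin2 libraries 11171 to 11927 peaks over 6246 to 6782 kb.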

How the data were processed

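The authors deposited raw RNA counts per gene and, per library, H3K27me3 and H3K9me2 peak lists with each peak's fold enrichment (a ratio) and −log10 q. The RNA counts taken as SSTS/AAAA were named NST by the authors. They were assigned through peak lists named NST that the labels place under SSTS/AAAA. The submitters' processing notes name FastQC 0.11.5, Trimmomatic 0.36, HISAT2 2.1.0, Subread 1.5.3 with featureCounts and BWA 0.7.15-r1142. They also name SAMtools 1.6, MACS2 and the builds TAIR10 and hg19. Strand and multi-mapping settings are not given in the sources used here. Counts were tested with edgeR 4.0.16 (R 4.3.3; TMM scaling, filterByExpr, quasi-likelihood test, Benjamini-Hochberg over 20046 genes, 12 libraries in 1 fit, threshold 0.05), checked on simulated data. Ratios of genes below the filter carry 95% counting intervals. Peaks were set against gene bodies of RefSeq's gene table, whose assembly is named a later release of TAIR10; 4913 genes were marked in Ctrl, and at most 4125 when the genes were shifted along the chromosome, and single genes were compared by exact permutation. A peak's fold, the authors' value, was used only within its own list. All members and the other WOX genes were named, with at most the 3 largest changes of each other list (absolute log2 of at least 1) and the 3 genes most alike. The members, part of a gene family, and the lists were chosen with earlier results of these data known. Same-numbered libraries did not deviate together, so the numbers were not used as pairs. Alternatives were DESeq2 1.42.0, RLE scaling, no filter, other peak rules and leaving out each library. No sequences are printed.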

Additional observations from a re-analysis of the deposited data

Results flagged for a closer look

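The changes of 4 members differed between the lines low in FIE by a test of the difference itself, in edgeR with 3 libraries per genotype, beside 23.5% of all genes called in that direction. On the log2 scale, the change of SSTS/AAAA from GFP-FIE exceeded that of amiR-fie-es from Ctrl by 2.71 for WOX9 (edgeR adjusted p = 1.43e-08), 3.42 for WOX3 (edgeR adjusted p = 0.000726), 0.92 for WOX2 (edgeR adjusted p = 0.000132) and 0.75 for WOX4 (edgeR adjusted p = 0.00787). WOX3 passed the filter on low counts only through SSTS/AAAA, where it is high. The WOX4 call was lost without Ctrl replicate 1 (0.57, edgeR adjusted p = 0.0649). WOX9 rose in both lines. WOX2 fell in amiR-fie-es, and its rise in SSTS/AAAA over GFP-FIE was lost without GFP-FIE replicate 2 (edgeR adjusted p = 0.064) or 3 (edgeR adjusted p = 0.0501). The 7 flower organ markers summed to 170 to 174 CPM in amiR-fie-es and 310 to 314 in SSTS/AAAA; in the same test of the difference 4 were called higher and 1, AG, lower (log2 -1.03), and their part was not tested.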

How the results depend on the processing

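The calls and directions of WOX1 and WOX9 in both main RNA comparisons held under every alternative run, with WOX9 between 4.15 and 4.67 and WOX1 between -1.17 and -1.08 (log2) in SSTS/AAAA against GFP-FIE as single libraries were left out. On the log2 scale WOX3 and WOX9 changed by nearly the same amount there, and with DESeq2 both gave 4.50. The WOX3 value rests on 2 counts in each GFP-FIE library. In CPM, WOX3 rose from 0.0724 to 1.65 and WOX9 from 0.485 to 11.0, so the likeness is of ratios only. With no filter on low counts, 5 members were higher in SSTS/AAAA than in Ctrl instead of 3, since WUS and WOX12 entered. Between amiR-fie-es and GFP-FIE 1 member instead of 2 was higher with DESeq2 or with only the libraries compared. Leaving out single libraries gave 3 to 5 members higher in SSTS/AAAA against GFP-FIE, 3 to 5 against Ctrl, and 1 to 2 higher in amiR-fie-es against Ctrl. Leaving them out also gave 1 to 2 higher and 1 to 2 lower in amiR-fie-es against GFP-FIE, and 1 to 2 lower in GFP-FIE against Ctrl. It turned the sign of values that were not called: -0.41 to 0.11 for WOX9 in GFP-FIE against Ctrl, -0.014 to 0.14 for WOX2 in SSTS/AAAA against Ctrl, -0.21 to 0.037 for WOX2 in amiR-fie-es against GFP-FIE, and -0.079 to 0.042 for the difference of effects of WOX1 (0.01 and 0.021 among them). With the replicate block, 4 members were higher and 1 lower in SSTS/AAAA against GFP-FIE and WOX9 stayed at 4.50; the block changed no call. Same-numbered libraries correlated in their deviations at -0.04 to 0.05 over 18 pairs. Requiring at least 50% of the gene body gave 0 members marked in amiR-fie-es, 5 in Ctrl, 5 in GFP-FIE, 2 in SSTS/AAAA, 3 in Col-0, 1 in tor-es, 5 under DMSO, 1 under AZD8055 and 5 under Torin2. Under that rule 5 were lost in amiR-fie-es, 2 were lost under AZD8055 and 2 were gained in Torin2 against AZD8055. With peaks of −log10 q of at least 5, 2 members were marked and 3 lost in amiR-fie-es, 0 were lost in SSTS/AAAA and 1 was gained under AZD8055. Adding 1 kb on both sides, chosen after seeing the data, gave 0 lost in SSTS/AAAA; 1 kb upstream was not run, as the gene table gives no strand. Shares of all genes were not computed for these other peak rules, so whether the members stand apart under them is not known. Leaving out single libraries gave 0 to 1 lost in amiR-fie-es, under Torin2 and in Torin2 against AZD8055, and 0 to 1 gained under AZD8055 and in GFP-FIE. The cause was not tested. Low counts limit WUS, WOX5, WOX8, WOX11 and WOX12, and also WOX3 outside SSTS/AAAA.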

Other observations

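WOX13, of the oldest clade of the family, averaged 12.2 ± 1.51 CPM in Ctrl (SD, n = 3), 12.2 ± 0.659 in amiR-fie-es, 11.1 ± 0.633 in GFP-FIE and 11.6 ± 0.372 in SSTS/AAAA, was not called in any of the 6 pairs of genotypes by edgeR, and had no H3K27me3 peak in any library. WOX10 and WOX14 had no peak either. WOX6 and WOX7 were marked in 3 of 3 libraries of all 9 groups. WOX7 was covered over its whole body in Ctrl and over 91.1% ± 10.7 in amiR-fie-es, and WOX6 over 70.3% ± 4.09 in Ctrl and 25.4% ± 4.74 in amiR-fie-es. WOX7 is short, with a counted length of 369 bp. The peaks over it summed to 1361 to 1561 bp in Ctrl and 340 to 794 bp in amiR-fie-es, a fall that its covered share hides. WOX6, also called PRETTY FEW SEEDS2 and known from ovule development, did not pass the filter on low counts. Over the libraries of a genotype it had 8 counts in Ctrl, 1 in amiR-fie-es, 9 in GFP-FIE and 3 in SSTS/AAAA. In amiR-fie-es against Ctrl the exact two-sided permutation p was 0.1. With no filter WOX6 was not called there (edgeR adjusted p = 0.071).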
